A study of Drosophila melanogaster with 4 samples.

Results

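The mir-310 cluster is a group of miRNA hairpins on chromosome arm 2R of Drosophila melanogaster. Its members were taken by name as every mature arm of dme-miR-310, dme-miR-311, dme-miR-312, dme-miR-313, dme-miR-991, dme-miR-992 and dme-miR-2498, which gave 14 of the 495 miRNA loci in the deposited table, from 7 hairpins. Small RNAs of whole ovaries were sequenced in 4 libraries. In 2 of them Ars2 was knocked down in the germline (short hairpin Ars2_sh1, VDRC stock 106344, called Ars2KD). In the other 2, taken here as controls, the germline hairpin targeted white, a gene of eye pigmentation (white_sh, VDRC stock 30033, called wKD). Only 1 hairpin stock per target was used, and the labels name no driver and no fly age. By its title the series is about Ars2 and the silencing of transposable elements and telomeres, and the comparison made here asks whether the miRNAs of the cluster differed between the groups.

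A miRNA is cut from a hairpin precursor, first by Drosha in the nucleus and then by Dicer-1, and 1 of the 2 arms, 5p or 3p, is usually kept by Argonaute while the other is degraded. The seed, a short stretch near the 5' end of the kept arm, sets which messages are repressed. The 3p arms of miR-310, miR-311, miR-312 and miR-313 resemble one another and share their seed with miR-92a and miR-92b, from which they are thought to derive by duplication. In flies the cluster is known from the ovary, where it represses Rab23 and DHR96 and thereby acts on Hedgehog signalling and the response to diet, from the testis and from the motor neuron synapse. miR-991, miR-992 and miR-2498 are less studied neighbours. Ars2 binds the nuclear cap-binding complex, and it has been linked to the processing of primary miRNA transcripts in flies and mammals.

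In dm6 the 7 hairpins lie on the minus strand at 2R:20583752-20585405, a stretch of 1654 bases. In the direction of transcription they run mir-992, mir-991, mir-2498, mir-313, mir-312, mir-311 and mir-310. The hairpins mir-313, mir-312, mir-311 and mir-310 are packed closely, with gaps of 68, 95 and 36 bases. Gaps of 379 and 448 bases set mir-2498 apart from mir-991 and from mir-313, and mir-992 and mir-991 lie 18 bases apart. The stretch overlapped 0 protein-coding genes of the Ensembl annotation. Its nearest protein-coding neighbours were qsm, 160 bases beyond mir-310, and Nnf1a, 816 bases before mir-992, both on the same strand. The start and end of all 14 member loci equalled those of a mature miRNA in that annotation.

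The miRNA table held 653566 and 3681482 counts in Ars2KD 1 and Ars2KD 2. It held 1056475 and 4554667 in wKD 1 and wKD 2. Both number 2 libraries were deeper than both number 1 libraries, so library number and depth cannot be told apart. The libraries also differed in make-up along this split. The maternal germline miRNA miR-184 held 12.0% and 11.5% of counts in Ars2KD 1 and wKD 1, but 47.6% and 35.1% in Ars2KD 2 and wKD 2. The follicle cell miRNAs miR-318, miR-989 and miR-994 together held 9.37% to 14.7%, with all 3 detected, and the muscle miRNAs miR-1 and miR-133 held 0.815% to 1.76%. Of the neural pair miR-124 and miR-137, miR-124 had no count and the pair held at most 0.000918%. A list of 18 testis-biased miRNAs, of which 14 had a count, held 0.0120% to 0.0456%. The part of these differences in the results on the cluster was not tested. The Ars2 and white messages are not measured by these libraries, so the knockdown could not be checked here. Whole ovaries mix germline and follicle cells, so fewer cells of a type and less miRNA per cell cannot be told apart.

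Nearly all counts of the cluster came from the 4 seed-sharing hairpins. miR-312-3p was its most abundant arm in every library. Its count was 12760 in Ars2KD 1, 34937 in Ars2KD 2, 15454 in wKD 1 and 268846 in wKD 2, which is 19524, 9490, 14628 and 59026 counts per 1000000 miRNA counts (CPM). It ranked 13th, 8th, 16th and 4th of all 495 loci in these libraries. By share of the table, the highest level, in wKD 2, and the lowest, in Ars2KD 2, were those of the 2 deeper libraries. The order depended on the scaling. After the TMM scaling used in the test the values were 8807, 30605, 6621 and 89679 CPM, with both number 2 libraries above both number 1 libraries.

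miR-311-3p was the next arm in 3 of 4 libraries. It had 3134, 1447, 5230 and 24656 counts in Ars2KD 1, Ars2KD 2, wKD 1 and wKD 2, equal to 4795, 393, 4950 and 5413 CPM. By share of the table, Ars2KD 1, wKD 1 and wKD 2 were close together and Ars2KD 2 was far below them. After TMM scaling, given with the test further on, wKD 2 was instead the library that stood apart. In Ars2KD 2 the next arm after miR-312-3p was instead miR-313-5p, at 832 CPM. miR-313-5p had 825, 3062, 1190 and 2044 counts in the same order of libraries, equal to 1262, 832, 1126 and 449 CPM. Its spread over libraries was the narrowest of the 4 seed-sharing hairpins' main arms.

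The arms of miR-310 traded places between libraries. miR-310-3p had 816 and 697 CPM in Ars2KD 1 and wKD 1 (533 and 736 counts), but 6.52 and 176 CPM in Ars2KD 2 and wKD 2 (24 and 801 counts). miR-310-5p had 33.7 and 118 CPM in Ars2KD 1 and wKD 1 (22 and 125 counts), and 570 and 691 CPM in Ars2KD 2 and wKD 2 (2100 and 3147 counts). For each arm, both number 1 libraries lay on 1 side of both number 2 libraries, so the Ars2KD and wKD groups overlapped.

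The minor arms were low and, by share of the table, lower in the number 2 library than in the number 1 library of either group. miR-313-3p had 162, 0, 200 and 48 counts in Ars2KD 1, Ars2KD 2, wKD 1 and wKD 2, equal to 248, 0, 189 and 10.5 CPM. By counting error alone, the 0 in Ars2KD 2 allows a level of up to 0.815 CPM, the value of 3 counts there. That library, although deeper, had a count at 151 loci, against 195 in Ars2KD 1. miR-311-5p had 91, 7, 250 and 12 counts, equal to 139, 1.90, 237 and 2.63 CPM. miR-312-5p, the passenger arm of the leading member, had 132, 124, 247 and 457 counts, equal to 202, 33.7, 234 and 100.3 CPM. After TMM scaling it had 91.1, 108.6, 105.8 and 152.4 CPM, so its number 2 library was then the higher in either group.

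The upstream hairpins gave few reads. miR-991-3p had 6, 17, 14 and 137 counts, equal to 9.18, 4.62, 13.3 and 30.1 CPM in Ars2KD 1, Ars2KD 2, wKD 1 and wKD 2, with both Ars2KD libraries below both wKD libraries. miR-992-3p had 1, 0, 4 and 1 counts, miR-992-5p had 1 count in wKD 1 alone, and miR-2498-3p had 3 and 2 counts in Ars2KD 1 and wKD 1 and 0 in the others. miR-991-5p and miR-2498-5p had 0 counts in all 4 libraries, where 3 counts equal 4.59, 0.815, 2.84 and 0.659 CPM. These 5 arms did not pass the filter on low counts, which 9 of 14 member loci and 152 of all 495 loci passed.

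**Figure D1:**
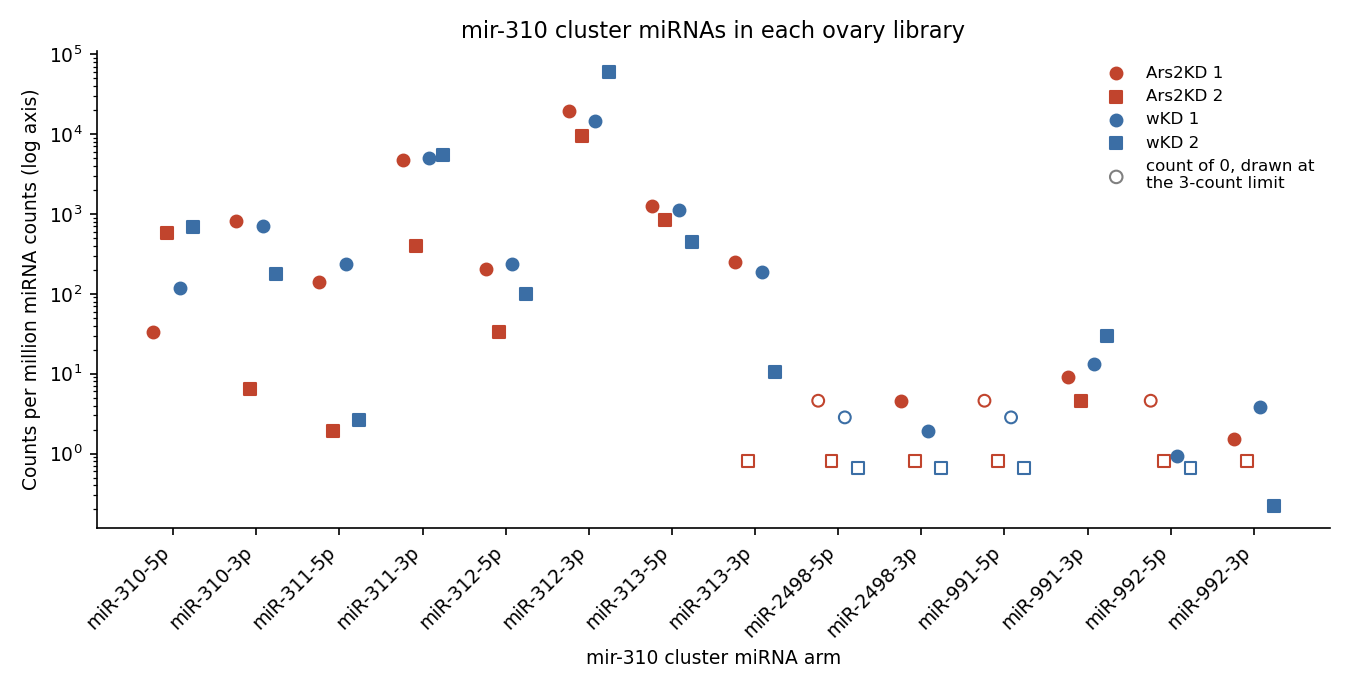
CPM, counts per 1000000 miRNA counts (log axis), of the 14 mir-310 cluster arms in each library, with Ars2KD in red, wKD in blue, number 1 as circles and number 2 as squares. Open symbols are counts of 0 drawn at the level of 3 counts in that library. miR-312-3p was the highest arm in all 4 libraries, and the 2 arms of miR-310 changed order between the circles and the squares.

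Within the cluster, miR-312 supplied most counts everywhere. With both arms summed it held 73.0% of the cluster counts in Ars2KD 1 (95% exact binomial interval 72.3 to 73.6), 84.0% in Ars2KD 2 (83.7 to 84.4), 66.9% in wKD 1 (66.3 to 67.5) and 89.7% in wKD 2 (89.6 to 89.8). The group means were 78.5% ± 7.83 in Ars2KD and 78.3% ± 16.1 in wKD (SD, n = 2). The intervals on shares take in counting error alone, because PCR copies of 1 molecule could not be recognised without molecular identifiers. miR-311 held 18.3% in Ars2KD 1, 3.49% in Ars2KD 2, 23.4% in wKD 1 and 8.22% in wKD 2. The difference, Ars2KD minus wKD, was -5.11 percentage points at number 1 and -4.73 at number 2, but the groups overlapped. Reads of the similar 3p arms may have been counted at another hairpin, so the split between miR-310, miR-311, miR-312 and miR-313 is uncertain to that extent.

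miR-310 held 3.14% and 5.09% of the cluster in Ars2KD 1 and 2, against 3.67% and 1.32% in wKD 1 and 2. miR-313 held 5.59% and 7.34%, against 5.93% and 0.697%, so wKD 2 was the library in which the smallest share came from these 2 hairpins. miR-991 held 0.0340% and 0.0407% of the Ars2KD libraries' cluster counts and 0.0597% and 0.0456% of the wKD libraries', the only hairpin whose groups did not overlap on this measure. These shares rest on 6, 17, 14 and 137 counts, and their intervals of 0.0125 to 0.0739, 0.0237 to 0.0652, 0.0326 to 0.1001 and 0.0383 to 0.0540 percent all overlapped. In a two-sided exact permutation test over libraries, 0.333 is the smallest p that 2 against 2 can give. miR-991 reached it, and the other 6 hairpins had p = 0.667 or 1.0, with an adjusted p of 0.933 or 1.0 over the 7 hairpins.

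**Figure D2:**
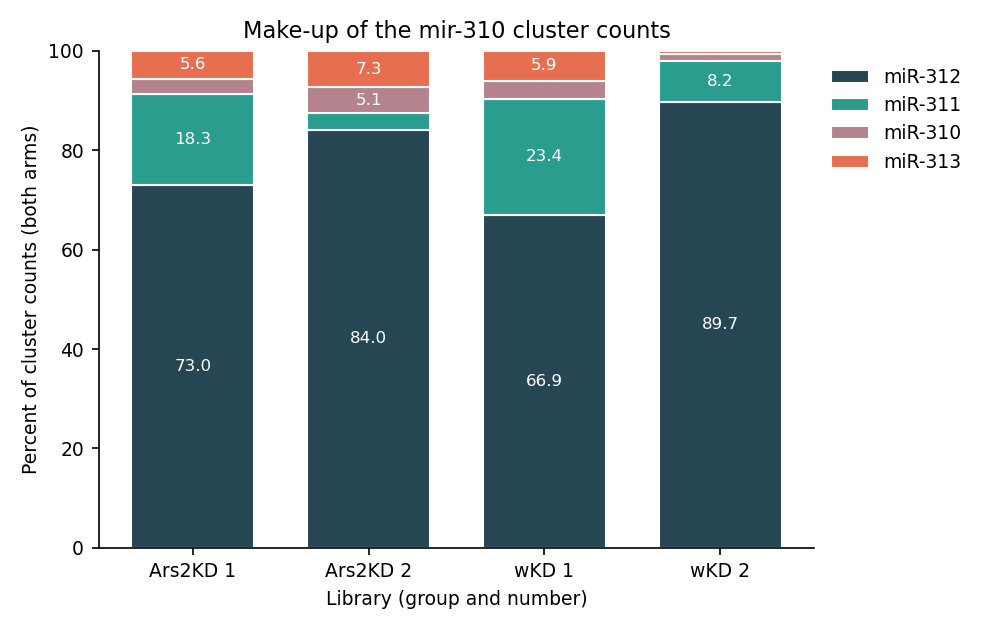
Percent of the summed mir-310 cluster counts (both arms) held by miR-312, miR-311, miR-310 and miR-313 in each library, with shares above 5% printed. miR-991, miR-992 and miR-2498 together are too small to see. miR-312 held 66.9% to 89.7% of the counts.

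The arm that predominated differed between hairpins. miR-311 and miR-312 gave almost only 3p reads, and miR-313 gave mainly 5p reads, in all 4 libraries. The 5p share of arm counts was 2.82%, 0.481%, 4.56% and 0.0486% for miR-311 in Ars2KD 1, Ars2KD 2, wKD 1 and wKD 2. For miR-312 it was 1.02%, 0.354%, 1.57% and 0.170%, and for miR-313 it was 83.6% in Ars2KD 1, 85.6% in wKD 1 and 97.7% in wKD 2, while all 3062 reads of miR-313 in Ars2KD 2 were 5p. Each of these 3 hairpins leaned further to its own major arm in the number 2 libraries than in the number 1 libraries. The 95% intervals of same-group libraries did not overlap for any of them.

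miR-310 was the member whose major arm depended on the library. Its 3p counts carry the uncertainty given above for similar 3p arms, and so does its arm balance. Its 5p share was 3.96% in Ars2KD 1 (interval 2.50 to 5.94) and 14.5% in wKD 1 (12.2 to 17.1), so the 3p arm led there. It was 98.9% in Ars2KD 2 (98.3 to 99.3) and 79.7% in wKD 2 (78.4 to 81.0), so the 5p arm led there. Between numbers the share differed by 94.9 percentage points within Ars2KD and by 65.2 within wKD. Between groups it was 10.6 points lower in Ars2KD at number 1 (a difference of -10.6) and 19.2 points higher at number 2.

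Averaged over libraries, no hairpin's arm balance separated the groups. For miR-310 the mean 5p share was 51.4% ± 67.1 in Ars2KD and 47.1% ± 46.1 in wKD (SD, n = 2). The differences, Ars2KD minus wKD, were 4.30 percentage points for miR-310, -0.65 for miR-311, -0.18 for miR-312 and 0.13 for miR-313. Each had p = 1.0 in the exact permutation test, and an adjusted p of 1.0 over the 4 hairpins. Leaving out Ars2KD 2 or wKD 1 changed the sign of all 4 differences. For miR-310 they became -43.2 and -28.3 points. With miR-310 to miR-313 summed, the 5p share was 6.06%, 12.7%, 7.73% and 1.89% in Ars2KD 1, Ars2KD 2, wKD 1 and wKD 2.

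**Figure D3:**
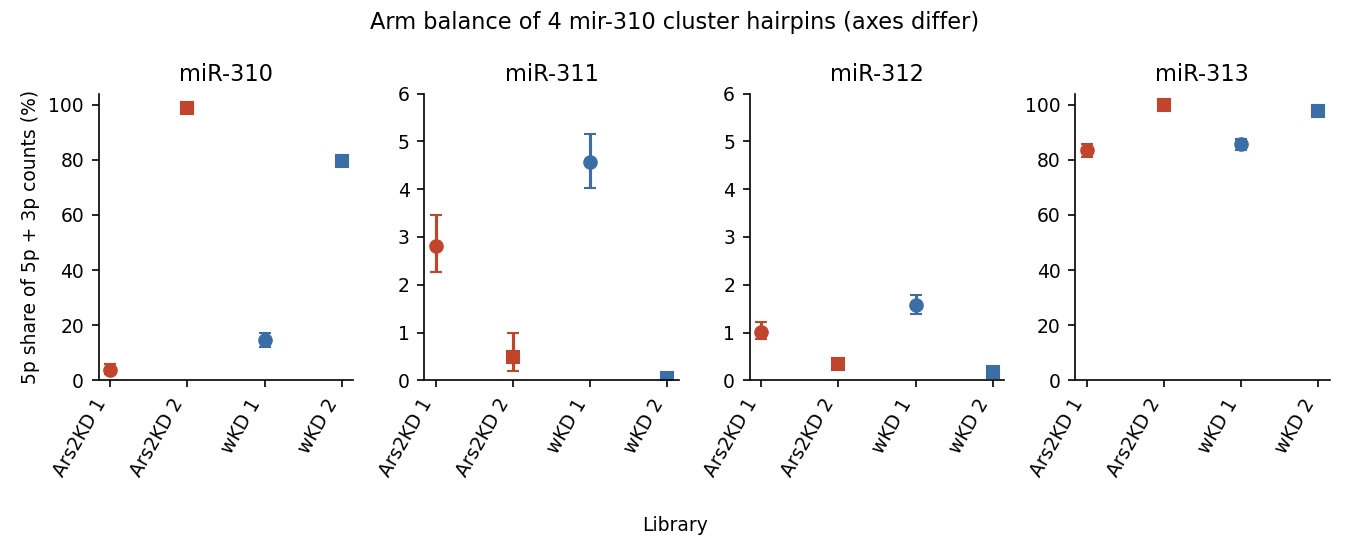
Share of 5p reads among the 5p and 3p counts (percent, axes differ between panels) of miR-310, miR-311, miR-312 and miR-313 in each library, with 95% exact binomial intervals, Ars2KD in red and wKD in blue. miR-310 was mainly 3p in the number 1 libraries and mainly 5p in the number 2 libraries of both groups.

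The comparison of Ars2KD with wKD called no member of the cluster. edgeR's quasi-likelihood test over 152 loci, with TMM scaling, called 0 loci (0.0%) and 0 of 9 members, with 0 loci at an unadjusted p under 0.05, and DESeq2 also called 0. Every member had an adjusted p of 0.997 after Benjamini-Hochberg adjustment. Standard errors of the members' log2 ratios ran from 1.48 to 2.36, and the lowest unadjusted p of any locus in the edgeR test was 0.232. The fit held group only, so differences between library numbers entered its spread within groups. The lack of calls therefore does not show that the groups were alike. The members' median log2 ratio, Ars2KD over wKD, was -0.58, with 3 of 9 above 0, against 0.06 over all 152 loci, of which 83 were above 0. Scaling to the table total instead of TMM moved the median of all loci to -0.18, and that of the members to -0.51 with 2 of 9 above 0.

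miR-311-3p had the lowest unadjusted p and the lowest ratio of the members. Its TMM-scaled level was 2163 CPM in Ars2KD 1, 1268 in Ars2KD 2, 2241 in wKD 1 and 8225 in wKD 2, with means of 1715 ± 633 and 5233 ± 4231 (SD, n = 2). The groups did not overlap, although Ars2KD 1 and wKD 1 were nearly equal. The log2 ratio was -1.61 (SE 1.61, edgeR unadjusted p = 0.350, adjusted p = 0.997). As a share of the table the log2 ratio was -0.05 at number 1 (95% counting interval -0.11 to 0.02) and -3.78 at number 2 (-3.86 to -3.71). The pooled value without wKD 2 was -0.50.

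miR-312-3p had a pooled log2 ratio of -1.29 (SE 1.88), from 19706 ± 15414 TMM-scaled CPM in Ars2KD and 48150 ± 58731 in wKD (SD, n = 2). Its share ratios were 0.42 (0.38 to 0.45) at number 1 and -2.64 (-2.65 to -2.62) at number 2, opposite in sign, and the pooled ratio turned to 1.39 without wKD 2. miR-991-3p had -1.44 (SE 2.02), with -0.53 (-2.20 to 0.94) and -2.70 (-3.52 to -1.97) within numbers, and 0.48 without wKD 2. The groups of miR-991-3p did not overlap as a share of the table but did after TMM scaling.

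The 2 arms of miR-310 differed in the sign of their pooled ratios, and those of miR-313 did not. Among these 4 arms, only miR-313-5p had the same sign pooled and within both numbers. miR-313-5p had 1.45 (SE 1.61) pooled, with 0.16 (0.03 to 0.29) and 0.89 (0.81 to 0.97) within numbers, and -0.085 without Ars2KD 2. miR-313-3p had 0.14 (SE 2.36) pooled and 0.39 (0.08 to 0.69) at number 1. At number 2 it had 0 counts against 48, and the 95% counting interval of its log2 share ratio reached up to -3.34. miR-310-3p had -0.58 (SE 1.74), with 0.23 (0.06 to 0.39) and -4.75 (-5.40 to -4.17) within numbers. miR-310-5p had 0.75 (SE 2.26) pooled, on the TMM scale. Its share ratios were negative at either number, -1.81 (-2.54 to -1.15) and -0.28 (-0.36 to -0.20). TMM-scaled levels were 15.2 CPM in Ars2KD 1 and 53.6 in wKD 1, but 1840 in Ars2KD 2 and 1050 in wKD 2. The sign at number 2 therefore depended on the scaling.

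The passenger arms of miR-311 and miR-312 had pooled ratios below 0. miR-311-5p had -0.69 (SE 2.05), with -0.77 (-1.13 to -0.41) and -0.47 (-2.05 to 0.99) within numbers, and its pooled sign turned without Ars2KD 2 (0.13) or wKD 1 (3.14). miR-312-5p had -0.37 (SE 1.48), with -0.21 (-0.53 to 0.10) and -1.57 (-1.87 to -1.29). Its sign was negative in the pooled fit, at both numbers and with any 1 library left out.

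Within number 1, 5 of 9 members had a lower share in Ars2KD, against 48.0% of all loci, and 1 of 9 was more than 2-fold lower, against 11.2%. Within number 2, 8 of 9 had a lower share, against 80.3%, and 6 of 9 were more than 2-fold lower, against 49.3%. TMM scaling moves each number 2 ratio up by 1.09 on the log2 scale, and each number 1 ratio by -0.0050, from the share of the table. On the share of the table both Ars2KD libraries lay below both wKD libraries for 2 of 9 members, miR-311-3p and miR-991-3p, against 7.24% of all loci. After TMM scaling this held for 1 of 9, miR-311-3p, against 1.32%. For 0 of 9 members both Ars2KD libraries lay above both wKD libraries on either scale, against 1.32% of loci by share and 1.97% after TMM scaling.

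**Figure D4:**
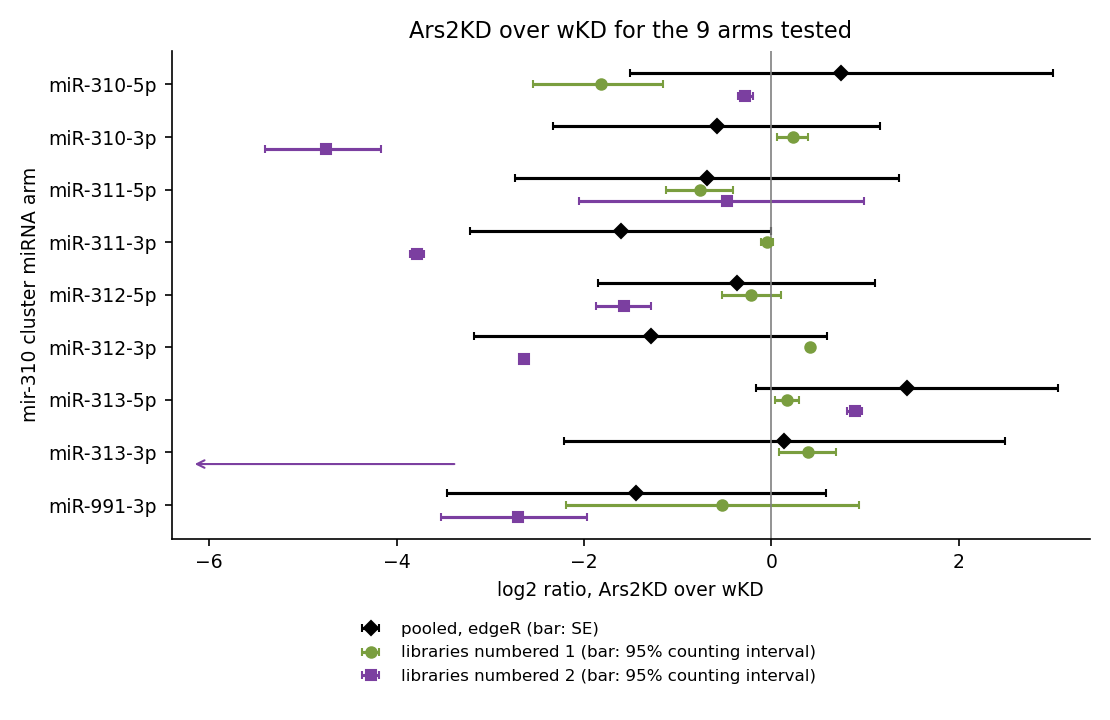
log2 ratio of Ars2KD over wKD for the 9 mir-310 cluster arms tested. Diamonds are the pooled edgeR values after TMM scaling with their SE, circles and squares are ratios of table shares between the libraries numbered 1 and 2 with 95% counting intervals, and the arrow marks miR-313-3p at number 2, where Ars2KD 2 had 0 counts. The pooled SEs run from 1.48 to 2.36, and miR-311-3p and miR-312-3p lie well below 0 at number 2 but near or above 0 at number 1.

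Summed over its 14 arms, the cluster held 2.70% of all miRNA counts in Ars2KD 1 (95% exact binomial interval 2.66 to 2.74), 1.13% in Ars2KD 2 (1.12 to 1.14), 2.22% in wKD 1 (2.19 to 2.25) and 6.59% in wKD 2 (6.57 to 6.61). The group means were 1.92% ± 1.11 in Ars2KD and 4.40% ± 3.09 in wKD (SD, n = 2). Ars2KD 1 lay above wKD 1, and Ars2KD 2 lay below wKD 2, so the groups overlapped. The mean log2 ratio was -1.13 with p = 0.667 in the two-sided exact permutation test. Within numbers it was 0.28 (0.26 to 0.31) and -2.54 (-2.55 to -2.53). Leaving out 1 library gave values from -1.91 to -0.34, the latter without wKD 2.

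miR-92a and miR-92b, which lie outside the cluster on 3R (miR-92a-3p at 3R:25646560-25646581, miR-92b-3p at 3R:25651457-25651478), offered a comparison among miRNAs of the same seed. miR-92b-3p had 4870, 40613, 6615 and 53610 CPM in Ars2KD 1, Ars2KD 2, wKD 1 and wKD 2, so it was high in both number 2 libraries. miR-92a-3p had 1308, 9.51, 854 and 232 CPM in that order, low in both. The 4 cluster members supplied 80.4% of the 3p counts of this family in Ars2KD 1 (interval 79.9 to 81.0) and 73.3% in wKD 1 (72.8 to 73.8). They supplied 19.6% in Ars2KD 2 (19.4 to 19.8) and 54.6% in wKD 2 (54.4 to 54.7). Whether reads of similar 3p arms were counted at another member of the family was not tested. miR-312-3p alone held 61.9%, 18.8%, 52.4% and 49.8% of the family in Ars2KD 1, Ars2KD 2, wKD 1 and wKD 2, and it was the leading member except in Ars2KD 2, where miR-92b-3p held 80.4%.

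The mean cluster share of the family was 50.001% ± 43.0 in Ars2KD and 63.9% ± 13.2 in wKD (SD, n = 2). The difference of -13.9 percentage points had p = 1.0 in the exact permutation test, was 7.16 at number 1 and -35.0 at number 2, and turned to 16.5 without Ars2KD 2. The edgeR log2 ratios of miR-92a-3p and miR-92b-3p were -0.25 (SE 1.75) and 0.66 (SE 2.29), neither past the threshold (adjusted p = 0.997). The family as a whole held 3.16%, 5.05%, 2.79% and 11.8% of miRNA counts in Ars2KD 1, Ars2KD 2, wKD 1 and wKD 2.

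**Figure D5:**
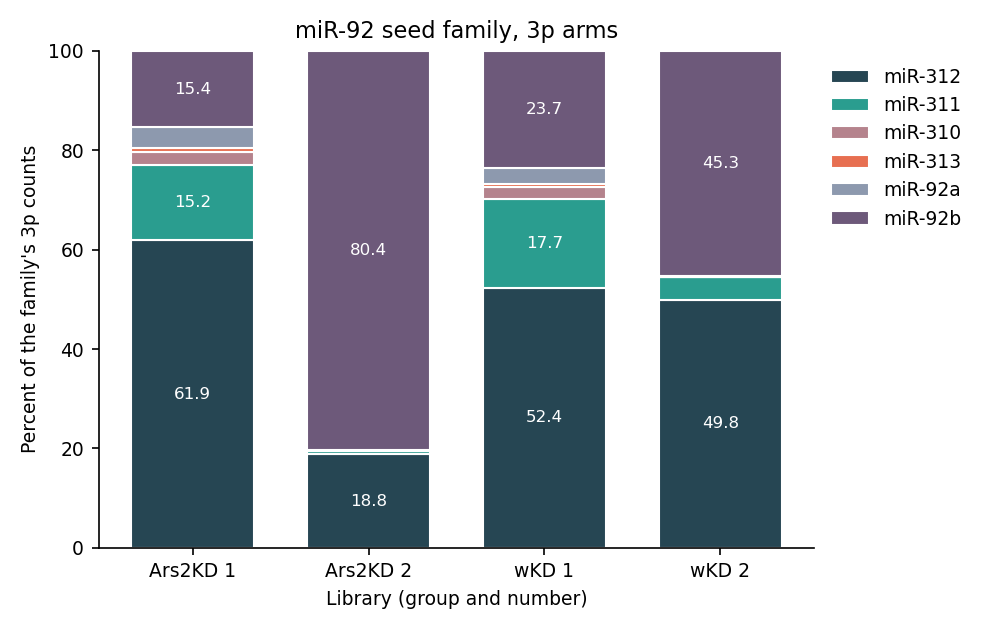
Percent of the summed 3p counts of miR-310, miR-311, miR-312, miR-313, miR-92a and miR-92b held by each of them in each library, with shares above 5% printed. The 4 cluster members made up 80.4% and 73.3% in the number 1 libraries and 19.6% and 54.6% in Ars2KD 2 and wKD 2.

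The profile of the summed cluster over the 4 libraries was set beside those of the 152 loci tested, by the Euclidean distance of log2 TMM-scaled CPM centred on each locus's mean. The members themselves were spread widely, from miR-312-3p at 0.35 and miR-991-3p at 0.58 to miR-311-5p at 6.44 and miR-313-3p at 7.27. The nearest locus was no member but miR-318-3p, a follicle cell miRNA, at 0.33, with 7914, 3859, 8748 and 20318 CPM in Ars2KD 1, Ars2KD 2, wKD 1 and wKD 2. It was followed by miR-10-3p at 0.63, miR-7-5p at 0.85, miR-375-3p at 0.97 and miR-9b-5p at 1.01. Some of these distances rest on few counts. In the same order of libraries, miR-10-3p had 10, 19, 12 and 109 counts and miR-375-3p had 7, 47, 11 and 236. The member miR-991-3p had 6, 17, 14 and 137. The other follicle cell miRNAs listed, miR-989 and miR-994, were not among these nearest loci. The follicle cell list as a whole held 14.7%, 9.37%, 12.8% and 10.8% of counts in Ars2KD 1, Ars2KD 2, wKD 1 and wKD 2, and so was not highest in wKD 2. The median over the 143 other loci was 3.69. With miR-312 supplying most of the cluster, this likeness describes miR-312-3p more than the other members, and it rests on 4 libraries that share 2 numbers.

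The second table, of 24 to 29 nt reads over annotated repeats, held 13 repeat copies within 5000 bases of the cluster and 0 inside it. These 13 copies had 0 counts in all 4 libraries, from table totals of 46218 to 323180 counts.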

How the data were processed

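Per the labels' protocols, ovarian RNA of 19 to 29 nt was selected on a gel. The authors deposited raw counts per mature miRNA locus and, per the file headers, counts of 24 to 29 nt reads per repeat copy. The dm6 build and the tools FastQC, Bowtie2, Trimmomatic and featureCounts are named in the submitters' processing notes. Not given in the sources used here were tool versions, strand settings and the treatment of reads that map to several positions. Number of table columns not used: 0. Library totals are those of the tables, since the number of reads sequenced is not among those sources.

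Of 495 loci, the 152 that passed the filter on low counts were fitted with edgeR 4.0.16 under R 4.3.3 (glmQLFit and glmQLFTest, group only, TMM, filterByExpr, Benjamini-Hochberg adjustment, adjusted p under 0.05). The TMM factor was 2.22 for Ars2KD 1, 0.310 for Ars2KD 2, 2.21 for wKD 1 and 0.658 for wKD 2. CPM without mention of TMM are counts per 1000000 of the miRNA table. Shares were compared by two-sided exact permutation tests over libraries. Arm shares needed at least 10 counts of both arms together in every library, while shares of the cluster were given for all 7 hairpins without a minimum. Ratios within a number compare 2 libraries, not the conditions, and their exact 95% intervals and the floor of 3 counts cover counting error only. Standard errors are the log2 ratio over the square root of the F statistic. Likeness used log2 CPM with a prior count of 2.

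Alternatives were DESeq2 1.42.0 (test or size factors), scaling to the table total, no filter, a replicate block, leaving out each library, and other denominators, arms or members for shares. The edgeR script was tested on simulated data with less spread between libraries than here and no difference by library number. That test checks the script and does not show which changes could be detected in these data. Ensembl BDGP6 has the coordinates of dm6. Python 3.11.15 steps used matplotlib 3.10.9, scipy 1.17.1, pandas 2.3.3 and numpy 2.4.6.

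All member loci are named, with miR-92a, miR-92b and the 5 other tested loci nearest in profile. Members, lists and tests were chosen with earlier results of these data known. Whether a group's libraries stem from separate flies is not stated in the labels, so the p-values reflect the spread between these libraries, possibly a technical one.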

Additional observations from a re-analysis of the deposited data

How the results depend on the processing

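Of 182 alternative values, 150 kept their direction and their side of the threshold, and 31 changed sign, 23 of them with 1 library left out. The 150 include the counts of calls, which were 0 throughout and have no direction. They also include the replicate-block value of the cluster share, which equals the main value by construction. No alternative called a member or any other locus: every count, with all libraries or with 1 left out, was 0. The members' median stayed below 0, from -0.87 to -0.22 with 1 library left out. So did the log2 ratio of the cluster share of miRNA counts (-1.91 to -0.34), although between the libraries numbered 1 it was 0.28. The median of all loci moved as well, to -0.42 without Ars2KD 1, -0.011 without Ars2KD 2 and 0.43 without wKD 1. Without wKD 2 it was -0.26, and the members' median of -0.22 was not below it. For miR-310-5p the log2 ratio was -0.42 with scaling to the table total, -0.44 with the replicate block, and -1.81 and -0.28 as a share of the table at numbers 1 and 2, a comparison chosen after seeing the data. After TMM scaling, miR-310-5p had the opposite order at number 2, with 1840 CPM in Ars2KD 2 and 1050 in wKD 2. At number 1 the share ratio was 0.23 for miR-310-3p and 0.42 for miR-312-3p. With the replicate block miR-313-3p had -1.40. In that edgeR fit 8 of all 152 loci had an unadjusted p under 0.05, among them 2 of 9 members. No member had an adjusted p under 0.867 there. With the 3p arm only, the difference in share of the cluster was -0.20 points for miR-310 and 0.018 for miR-313. The cause of these changes was not tested.

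With 1 library left out, log2 ratios ranged from -3.87 to 0.31 for miR-310-3p, -5.18 to 3.90 for miR-310-5p, -3.25 to 3.14 for miR-311-5p, -2.45 to 1.39 for miR-312-3p, -9.80 to 1.86 for miR-313-3p, -0.085 to 2.09 for miR-313-5p and -2.63 to 0.48 for miR-991-3p. Differences in 5p share ranged from -43.2 to 51.8 points for miR-310, -2.91 to 1.60 for miR-311, -0.88 to 0.52 for miR-312 and -8.07 to 8.34 for miR-313. Those in cluster share ranged from -12.5 to 2.65 for miR-311 and -11.2 to 11.6 for miR-312, and that in family share from -44.3 to 16.5. A lone library was assumed to vary like the other group.

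The labels do not say that a replicate number pairs libraries. Over 152 loci, deviations from the group means of same-numbered libraries had r = 0.90, and with 2 pairs this is only a hint from the data. The replicate block left 0 calls. At the floor of 3 counts, levels under 4.59 CPM in Ars2KD 1 and 2.84 in wKD 1 could not be told from 0, which limits miR-992, miR-2498 and the 5p arm of miR-991. The lower floors of the number 2 libraries follow from depth alone. These deeper libraries had a count at fewer loci, 151 in Ars2KD 2 and 185 in wKD 2, against 195 in Ars2KD 1 and 219 in wKD 1. The cause was not tested.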

Other observations

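The arm balance of miR-310 was set beside that of the other hairpins with 1 locus per arm and at least 10 counts of both arms together in every library, 65 hairpins in all. The major arm differed between number 1 and number 2 libraries in both groups for 9 of them, and between groups at both numbers for 0. miR-310 was 1 of 7 whose major arm was 3p at number 1 and 5p at number 2, and 2 went the other way. Others of the 7, chosen after their values were seen, were miR-998, with 5p shares of 12.0%, 92.0%, 10.9% and 93.4% in Ars2KD 1, Ars2KD 2, wKD 1 and wKD 2, and miR-988, with 13.9%, 94.6%, 33.7% and 94.0%.

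The difference in 5p share between the 2 Ars2KD libraries had a median of 3.90 percentage points over the 65 hairpins, and that of miR-310, 94.9, was the largest of them. Between the 2 wKD libraries the median was 2.94 points, and miR-310 had rank 4. Between groups the medians were 0.920 points at number 1 and 0.221 at number 2, where miR-310 had ranks 6 and 8.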
